A study of Mus musculus with 24 samples.

Results

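Copy number segments of 1 to 20 Mb were examined in murine adrenal glands and neuroblastoma tumours analysed by shallow whole genome sequencing (sWGS). A segment is a stretch of a chromosome to which the calling assigned a single log2 ratio against wildtype adrenal glands. Members were selected on their length alone, from 1 Mb to below 20 Mb on Chr 1 to 19. The rule found 465 of 1485 autosomal segments, with 33 in 5 AGM adrenal glands, 219 in 8 TI tumours and 213 in 8 TIM tumours. The other segments comprised 395 under 1 Mb and 625 of 20 Mb or more.

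AGM are adrenal glands of animals labelled MYCN fl/wt, CRE +, which formed no tumours. TI are tumours labelled IGF2BP1 +/+, CRE +, except that replicate 1 is labelled IGF2BP1 +/-, CRE +. TIM are tumours labelled IMP1/MYCN, CRE +, IMP1 being another name of IGF2BP1. The transgenes lie at the Rosa26 locus behind a stop cassette and are switched on by an improved Cre recombinase that Dbh drives in adrenal glands and peripheral nerves, and the lines were backcrossed to C57Bl6/N. The reference consisted of 3 adrenal glands labelled CRE -, which carry no segment values of their own. Ages were not given in the labels. In the study, median survival was shorter with both transgenes than in IGF2BP1 +/+ animals, and the MYCN animals were culled later still. Age and genotype hence cannot be told apart here. An adrenal location is labelled for TI replicate 6 and for TIM replicates 1 and 5, and the other tumours carry no site. The labels do not tie tumours to animals. In the study, animals with both transgenes could bear several tumours, so TIM tumours may share an animal, and p-values that rest on 8 TIM tumours may be too small. Each sample is bulk tissue, so the share of tumour cells and the copy number per cell cannot be told apart in any level below. Sample titles start with SH in wildtype adrenal glands and TI replicates 1 to 7 and with AGH in AGM, TIM and TI replicate 8. This difference and the genotype cannot be told apart for TI replicates 1 to 7, and replicate 8 is the only TI tumour with the prefix of AGM and TIM.

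Neuroblastoma arises from the sympathoadrenal lineage of the neural crest. Its genome is typically marked by whole-chromosome gains and by segmental changes, in which part of a chromosome arm is gained or lost, and segmental changes such as 1p loss, 11q loss and 17q gain accompany high-risk disease. In sWGS a segment boundary is placed where the read density of neighbouring windows changes. A boundary can hence mark a rearrangement, a repeat or assembly gap, or a shift of read density with base composition. A duplication of a single allele in all cells gives a log2 ratio near 0.58, and loss of a single allele gives -1.

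The members with the highest levels lay over the transgene locus on Chr 6. The sequence of this locus and the edges of these members are shown because the highest values of the whole set rest on them. Rosa26 (Gt(ROSA)26Sor) is a non-coding RNA gene widely used for transgenes, which are commonly inserted at an XbaI site (TCTAGA) in its intron 1. The insertion position in the present animals is not given in the sources used here. The site nearest to exon 1 lies at chr6:113052992-113052997 (GRCm39) in intron 1, 1138 bases after exon 1, and is 1 of 2 such sites in this intron of 5738 bases. It is shown with its surroundings (chr6:113052895-113053094, minus strand), the site in capitals, followed by 120 bases around each edge of both members (plus strand), with the bases inside the member in capitals.
Rosa26 XbaI site: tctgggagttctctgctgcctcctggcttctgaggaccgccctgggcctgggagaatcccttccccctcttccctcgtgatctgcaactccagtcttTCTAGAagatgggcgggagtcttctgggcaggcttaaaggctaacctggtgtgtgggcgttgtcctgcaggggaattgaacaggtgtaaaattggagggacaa
TIM replicate 5, start, chr6:110399941-110400060: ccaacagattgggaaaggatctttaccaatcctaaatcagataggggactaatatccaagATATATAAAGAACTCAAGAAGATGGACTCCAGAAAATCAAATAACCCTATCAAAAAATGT
TIM replicate 5, end, chr6:116279941-116280060: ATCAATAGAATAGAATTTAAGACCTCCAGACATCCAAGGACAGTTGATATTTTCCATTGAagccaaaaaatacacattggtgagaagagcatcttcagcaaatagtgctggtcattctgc
TIM replicate 9, start, chr6:113039941-113040060: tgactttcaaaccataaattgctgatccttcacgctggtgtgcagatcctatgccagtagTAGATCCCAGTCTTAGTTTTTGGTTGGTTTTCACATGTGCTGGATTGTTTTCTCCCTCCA
TIM replicate 9, end, chr6:114139941-114140060: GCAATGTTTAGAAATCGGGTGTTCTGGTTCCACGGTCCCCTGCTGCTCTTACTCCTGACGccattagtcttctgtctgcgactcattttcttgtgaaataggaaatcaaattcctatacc
Segment edges follow a grid of 20 kb, so that these sequences show the grid position at which a level changed and not a breakpoint at base resolution. The XbaI site lay 12.99 kb inside the start of the TIM replicate 9 member and 2653 kb inside that of TIM replicate 5.

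TIM replicate 5 carried the member chr6:110400001-116280000 of 5.88 Mb at a log2 ratio of 3, listed as 16 copies. TIM replicate 9 carried chr6:113040001-114140000 of 1.10 Mb, also at 3. Both medians were exactly 3, whereas the mean log2 ratios of the segments were 2.94 and 2.97. A segment of under 1 Mb beside a Chr 6 member of TIM replicate 12 had a median of 3.06, so that 3 was not an upper limit of the listed medians. The member in TIM replicate 9 held 30 protein-coding genes and that in TIM replicate 5 held 61. A further pair of TIM tumours had a member over Rosa26, at 0.71 in replicate 7 (chr6:112780001-114840000, 2.06 Mb) and at 0.78 in replicate 12 (chr6:112340001-122120000, 9.78 Mb). The member of TIM replicate 12 was part of a gain of the whole Chr 6, while Chr 6 was not gained over at least 50% of its length in the other 3 tumours. In TIM replicate 7 the member lay within a gained block of 57.4 Mb, between segments at 0.59 and 0.60, and stood only 0.12 above them. The members of TIM replicates 5 and 9 stood 2.99 and 2.98 above neighbours near 0. At the centre of the TIM replicate 9 member, the log2 ratio was 0.015 in each of the 5 AGM samples and ranged from 0.005 to 0.51 in 8 TI tumours. In the TIM tumours with no member there it was 0.48 (replicate 1), 0.019 (replicate 4), 0.022 (replicate 8) and 0.56 (replicate 11), which lay within or close to the range of TI. No TI tumour had a member that contained the site. Vhl, a tumour suppressor gene of the hypoxia pathway, lay in the members of all 4 TIM tumours.

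**Figure D1:**
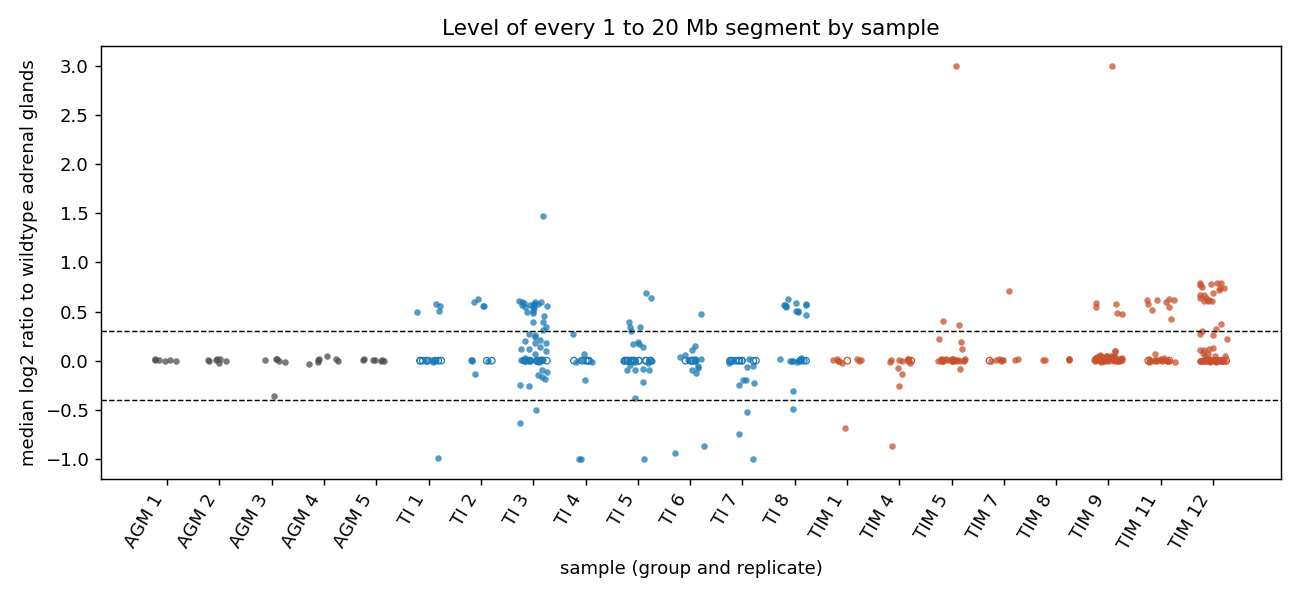
Median log2 ratio (vertical axis) of each of the 465 segments of 1 to 20 Mb, by sample, with open circles for segments of at least 50% undetermined reference bases and dashed lines at 0.3 and -0.4. AGM points lie between -0.36 and 0.045, whereas TI points reach -0.99997 and 1.47 and TIM points reach 3 in replicates 5 and 9.

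Members were 6.6 ± 0.548 per sample (SD, n = 5) in AGM, 27.4 ± 17.4 (n = 8) in TI and 26.6 ± 22.0 (n = 8) in TIM. The 5 AGM samples had 6, 7, 6, 7 and 7 members. TI replicates 1 to 8 had 18, 11, 64, 14, 40, 21, 22 and 29 members. TIM replicates 1, 4, 5, 7, 8, 9, 11 and 12 had 10, 13, 28, 10, 5, 57, 28 and 62. Every TI tumour lay above every AGM sample, whereas TIM replicate 8 lay below them all. TI replicate 3, TIM replicate 9 and TIM replicate 12 stood far above the other tumours. The members covered 2.52% ± 0.437 of the autosomes in AGM, 8.15% ± 5.96 in TI and 9.38% ± 8.10 in TIM.

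The difference between TI and AGM was larger than the spread between samples (two-sided exact permutation test on rank sums, p = 0.00155, the smallest this design allows, adjusted p = 0.00777, Benjamini-Hochberg over 10 comparisons, 40 of 40 pairs higher in TI). TIM against AGM gave an adjusted p of 0.0451 in the same exact test, with 35 of 40 pairs higher in TIM, and TIM tumours of a shared animal would make this p too small. This call was lost without any of the 5 AGM samples (adjusted p from 0.0687 to 0.0808), without the tumours of over 100 segments (0.115) and with a difference of means in place of ranks (0.135). TI and TIM did not differ beyond their spread (exact p = 0.489). With a difference of means in the exact permutation test, the call for TI against AGM was lost as well (adjusted p = 0.0777).

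**Figure D2:**
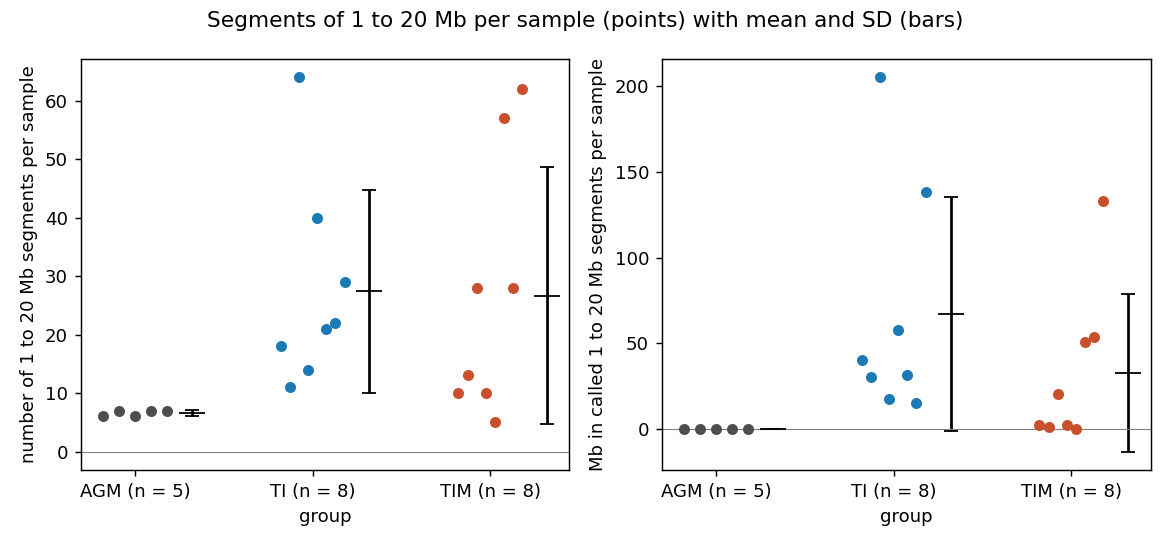
Number of 1 to 20 Mb segments per sample (left) and Mb in those at or past 0.3 or -0.4 (right), with 1 point per sample and the mean and SD beside each group. The 5 AGM samples sit at 6 or 7 segments and 0 Mb, and both tumour groups spread widely above them apart from TIM replicate 8.

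Part of the members was reference sequence without determined bases. Mouse chromosome ends near the centromere are undetermined in the assembly, and 60 TI and 17 TIM members, but 0 AGM members, consisted of such bases to at least 50%. All lay at the chromosome start, and the shortest were 3 Mb long. A log2 ratio of exactly 0 was given to 67 members in TI, 26 in TIM and 3 in AGM, of which 65, 25 and 3 began at base 1 of a chromosome. TI replicates 1 to 7, whose titles share a prefix with the wildtype reference, had 2 to 17 such gap members, and TI replicate 8 had 2. Their part in the counts can be measured directly. Without gap members, an alternative chosen after seeing the data, TI had 19.9 ± 15.8 members (SD, n = 8) and TIM had 24.5 ± 20.4, so that TIM had more by rank (exact p = 0.937). The difference of TI from AGM kept its side of the threshold without them.

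Segments counted as gained from a log2 ratio of 0.3 upwards and as lost from -0.4 downwards, after the study's thresholds. In AGM, 0 of 33 members passed either, while 7.66% of all AGM segments were gains and 23.8% losses, all of them segments under 1 Mb. In TI, 50 of 219 members were gains (22.8%, against 16.6% of all TI segments) and 12 were losses (5.48%, against 12.9%). In TIM, 40 of 213 members were gains (18.8%, against 13.9%) and 2 were losses (0.939%, against 12.7%). Pooled over tumours, gained members had a median log2 ratio of 0.55 in TI and 0.62 in TIM, which correspond to 2.94 and 3.07 copies. TI replicate 3 gave 23 of the 50 and TIM replicate 12 gave 21 of the 40, so these medians do not compare the groups. Lost members had a median of -0.91 in TI, or 1.07 copies. The remaining 157 TI and 171 TIM members lay between the thresholds, and 110 and 147 of them differed from 0 by at most 0.05. Without gap members these were 50 of 97 in TI and 130 of 154 in TIM.

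Called members amounted to 0 Mb in each of the 5 AGM samples. In TI replicates 1 to 8 they summed to 40.3, 30.1, 205, 17.2, 57.9, 31.5, 14.8 and 139 Mb. In TIM replicates 1, 4, 5, 7, 8, 9, 11 and 12 they summed to 1.92, 1.08, 20.3, 2.06, 0, 50.7, 53.4 and 133 Mb. All TI tumours and 7 of 8 TIM tumours were above the AGM samples, and 4 of 8 TIM tumours had 2.06 Mb or less. TI exceeded AGM (exact permutation test of the rank sum, adjusted p = 0.00777) and TIM exceeded AGM (adjusted p = 0.0194), while TI at 66.96 ± 68.5 Mb and TIM at 32.8 ± 46.1 Mb did not differ beyond their spread (adjusted p = 0.229). When neighbouring segments that differed by under 0.1 were merged first, called members amounted to 19.3 ± 12.95 Mb in TI and 17.9 ± 38.3 Mb in TIM (SD, n = 8 each). The medians were 19.9 Mb in TI and 1.99 Mb in TIM. TIM replicate 12 alone held 111 Mb, TIM replicate 5 held 20.3 Mb and the other TIM tumours at most 4.7 Mb. TI replicate 3 held 37.6 Mb, TI replicate 8 held 4.08 Mb and TI replicate 2 held 0. Both groups still exceeded AGM (exact test, adjusted p = 0.0194 each). The TIM call was lost when members had to be at least 2 Mb long (0.138), and with a difference of means both calls were lost (0.135 for TI and 0.159 for TIM). Lost members amounted to 11.3 ± 10.7 Mb in TI and 0.375 ± 0.730 Mb in TIM, which was not compared by a test.

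Most gained members were pieces of longer gains. Neighbouring gained segments were joined to a block, and 41 of 50 gained members in TI and 33 of 40 in TIM lay in blocks of at least 20 Mb. Only 8 in TI and 7 in TIM had no gained neighbour. Lost members showed the opposite arrangement, with 2 of 12 in TI in a block of at least 20 Mb and 8 standing alone, as did both lost members in TIM.

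In TI the autosomes with most members were Chr 12 (36 members in 8 tumours), Chr 4 and Chr 14 (24 each), Chr 17 (21) and Chr 7 (17). In TIM they were Chr 6 (41 members in 6 tumours), Chr 7 (29), Chr 14 (27), Chr 11 (12), and Chr 9 and Chr 18 (11 each). Without gap members TI had 28 on Chr 12 in 4 tumours, 21 on Chr 14, 20 on Chr 4, 16 on Chr 17 and 16 on Chr 7, and TIM had 37 on Chr 6 in 5 tumours, 29 on Chr 7, 27 on Chr 14, 10 on each of Chr 4, Chr 11 and Chr 12, and 9 on each of Chr 3, Chr 9 and Chr 18. On Chr 12, 28 TI members in 4 tumours were gained and 0 of 10 TIM members were. On Chr 6, 30 TIM members in 5 tumours and 9 TI members in 2 tumours were gained. Chr 4 held 6 of 12 lost TI members, in 4 tumours, and none of its 10 TIM members was lost. Chr 19 had 4 members in TI, all of them gap segments, and 0 in TIM. Chr 7 and Chr 14 stood apart, since they also held 13 and 10 of the 33 AGM members, and on Chr 14 no member of either tumour group was called.

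**Figure D3:**
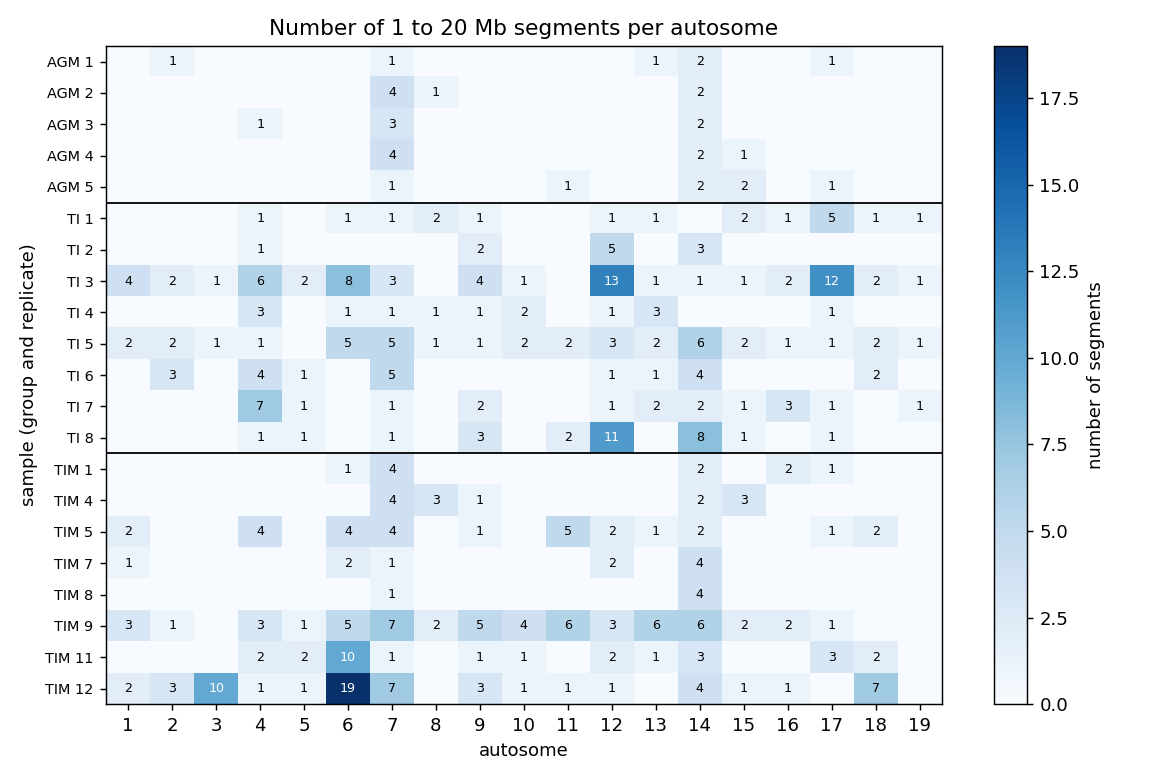
Number of 1 to 20 Mb segments on each autosome (horizontal axis) in each sample (vertical axis), with darker shading for higher counts and empty cells for 0. The highest counts were 19 on Chr 6 in TIM replicate 12, 13 on Chr 12 in TI replicate 3 and 12 on Chr 17 in TI replicate 3, and counts on Chr 7 and Chr 14 recur in AGM.

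Some members had the same boundary in many samples. A start at chr7:138160001 was shared by 17 samples (3 AGM, 7 TI and 7 TIM), with levels from 0.001 to 0.030. On Chr 14, 12 samples shared the start 26020001 and 10 shared the start 43800001. Members with an internal boundary shared by at least 3 samples made up 15 of 33 in AGM, 44 of 219 in TI and 38 of 213 in TIM. Of these, 20 in TI, 6 in TIM and 0 in AGM were gap members. At these 3 shared starts the level of the members stayed within 0.15 of 0.

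Chr 12 carries Mycn, whose human ortholog on 2p is the oncogene amplified in high-risk neuroblastoma. Mycn lay in a gained member in 3 TI tumours, at 0.60 in replicate 2 (chr12:3040001-17600000), 0.58 in replicate 3 (chr12:3100001-17720000) and 0.50 in replicate 8 (chr12:8400001-24060000). Max, the dimerisation partner of MYC proteins, lay in gained members of TI replicates 3 (0.60) and 8 (0.56). In TI replicate 3 the whole Chr 12 was gained, as 12 members without gaps at levels between 0.50 and 0.60. The Chr 12 of TI replicate 8 consisted of 10 such members between 0.47 and 0.57. In TI, 2 further tumours had Mycn in gained segments of 99.3 and 117 Mb, which are too long to be members. No gained member in TIM contained a gene of the MYC family.

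On Chr 6, TIM replicate 12 was gained over 97.7% of its length and cut into 25 segments, of which 19 were members. Levels of the 18 members without gaps ran from 0.60 to 0.79. TIM replicate 11 had 10 members on a gained Chr 6, and the 9 without gaps had levels between 0.42 and 0.62. Braf, a kinase of the RAS-MAPK pathway, lay in gained members at 0.79 and 0.62 in these tumours, and at 0.54 in TI replicate 3 and 0.30 in TI replicate 5.

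Chr 11 contains Igf2bp1 and the mouse counterparts of genes from human 17q. In 7 of 8 TI tumours Igf2bp1 lay in gained segments of 35.8 to 49.9 Mb, at levels from 0.53 to 0.96, which are too long to be members. Among members, it lay in a gained one in TIM replicate 9, at 0.59 (chr11:93520001-108360000, 14.8 Mb), together with Nme1, Top2a, Gjc1 and Brca1. Birc5, which encodes the apoptosis inhibitor survivin, lay in a separate member of this tumour at 0.58 (chr11:112440001-121360000). In TIM replicate 5, Igf2bp1 lay in a member of 7.76 Mb at 0.22, below the threshold. Its neighbours on either side passed it, with Msi2 in a member of 3.26 Mb at 0.36 and Top2a, Gjc1 and Brca1 in a member of 11.1 Mb at 0.41. In TI replicate 8 the gained members were chr11:58280001-74820000 at 0.59, which holds the tumour suppressor gene Trp53, and chr11:74820001-80980000 at 0.63, which holds the RAS inhibitor Nf1.

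A single gained member in TI exceeded 1. It was chr2:169540001-170960000 in TI replicate 3, of 1.42 Mb, at 1.47 or 5.54 copies. Its step to both neighbours was 1.46, and at its centre the other 20 samples lay between -0.056 and 0.045. It held 6 protein-coding genes, namely Tshz2, Zfp217, Bcas1, Cyp24a1, Pfdn4 and Dok5. Zfp217 is the mouse counterpart of a zinc finger gene amplified in human breast cancer, and Cyp24a1 degrades active vitamin D. The gene lists did not include them, and they are named here because the member was the highest of its group.

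Members with levels between -0.87 and -0.99997 were found on Chr 4, 9, 15 and 16 of TI tumours. On distal Chr 4, TI replicate 4 had chr4:138160001-145640000 at -0.996 and chr4:146960001-156720000 at -0.997. TI replicate 6 had chr4:145980001-156720000 at -0.94 and chr4:89180001-108740000 at -0.87. Distal Chr 4 corresponds to human 1p36, and 4 of 5 genes of that list (Chd5, Camta1, Kif1b and Casz1, candidate suppressors or neuronal genes) lay in the lost members of both tumours. The more proximal member in TI replicate 6 held Cdkn2a and Cdkn2b, which encode inhibitors of cyclin-dependent kinases. TI replicate 1 lost chr16:90540001-97920000 at -0.98, TI replicate 5 lost chr15:37400001-39160000 at -0.999, which holds the ribonucleotide reductase gene Rrm2b, and TI replicate 7 lost chr9:121760001-124260000 at -0.99997. The last region overlaps chr9:123120001-124120000, lost at -0.49 in TI replicate 8. Shallower losses were found for chr4:3160001-6140000 in TI replicate 3 (-0.50), chr9:3080001-18240000 in TI replicate 3 (-0.63) and chr16:18200001-29240000 in TI replicate 7 (-0.52).

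Both lost members in TIM were short and lay on Chr 7. In TIM replicate 4 it was chr7:46860001-47940000 at -0.87, which holds 9 Mrgpr genes, a tandem family of sensory neuron receptors. In TIM replicate 1 it was chr7:58480001-60400000 at -0.69, which holds the imprinted genes Ube3a, Snrpn and Snurf. In AGM replicates 2, 3 and 4 these regions held short segments between -0.55 and -0.99, and the AGM members beside them had levels from -0.037 to -0.003. A TI member of this kind was chr4:41620001-42860000 in replicate 7 at -0.74, over the tandem Ccl21, Ccl27 and Il11ra genes. TI replicate 4 had a member at the same place, chr4:41680001-42740000, at -0.19. AGM replicate 3 had chr4:41760001-42780000 at -0.36, the lowest level among AGM members, and AGM replicate 4 had a segment at the same place that was 0.98 Mb long and so no member. The part of near-identical gene copies in the levels over the Mrgpr and Ccl genes was not tested.

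Of 72 genes in the lists, 52 lay in at least 1 member, 20 in a gained and 6 in a lost member, against 61.2%, 19.2% and 3.65% of 20621 autosomal protein-coding genes (27.8% and 8.33% of the list for gains and losses). By role, 6 of 7 genes from 17q, 5 of 11 RAS-MAPK genes and 2 of 4 MYC family genes were in a gained member. Of 14 genes of the p53 and RB pathways, 3 (Trp53, Mdm4 and Cdkn1a) lay in gained and 2 in lost members. Mdm4, an inhibitor of p53, was at 0.35 in TI replicate 3, and Nras was at 0.32 in TIM replicate 12. All 4 genes from 11q and 4 of 8 genes of adrenergic identity lay in a member, and 0 of them in a called member. The lists were chosen with earlier results of these data known, and neighbouring genes share segments.

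The step of a member was taken as the larger difference of its median log2 ratio from the neighbouring segment on either side. The median step per sample was 0.87 ± 0.18 (SD, n = 5) in AGM, 0.29 ± 0.20 (n = 8) in TI and 0.48 ± 0.38 (n = 8) in TIM. AGM samples ranged from 0.58 to 1.00, TI tumours from 0.10 to 0.60 and TIM tumours from 0.026 to 1.01, so that 1 of 40 pairs was higher in TI than in AGM. TI lay below AGM (exact permutation test of the rank sum, adjusted p = 0.0104), whereas TIM against AGM (0.212) and TI against TIM (0.489) did not pass the threshold. In AGM this measure was set by short neighbours. On Chr 7 in AGM, the member from 138160001 to the chromosome end had a level between 0.005 and 0.012 in replicates 1, 2 and 4 and stood beside a short segment between 0.93 and 1.05. In TI, gap segments at the chromosome start entered as well. The median steps of TI replicates 1 and 2 (0.58 and 0.60) equalled the step from such a gap at 0 to the gained member after it.

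With neighbours of at least 1 Mb only, the order turned. Leaving out gaps as well was an alternative chosen after seeing the data. With it the median step was 0.013 ± 0.0074 in AGM, 0.099 ± 0.086 in TI and 0.029 ± 0.033 in TIM. In TI replicates 1 to 8 it was 0.015, 0.038, 0.11, 0.24, 0.082, 0.064, 0.22 and 0.024. In TIM replicates 1, 4, 5, 7, 8, 9, 11 and 12 it was 0.010, 0.032, 0.019, 0.005, 0.004, 0.034, 0.022 and 0.10. In all, 6 of 8 TI tumours lay above the AGM range of 0.006 to 0.026, and 5 of 8 TIM tumours lay inside or below it. On this scale TI was higher than AGM (adjusted p = 0.0194, exact permutation test) and than TIM (adjusted p = 0.0469), and TIM did not differ from AGM beyond the spread (adjusted p = 0.622). With gaps kept, the alternative planned beforehand, the adjusted p of these exact tests were 0.00518, 0.00738 and 0.355. Pooled over tumours, gained members stepped by a median of 0.070 in TI and 0.12 in TIM against such neighbours, and the 12 lost members in TI by 0.54. In TIM, 21 of the 40 gained members came from replicate 12.

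**Figure D4:**
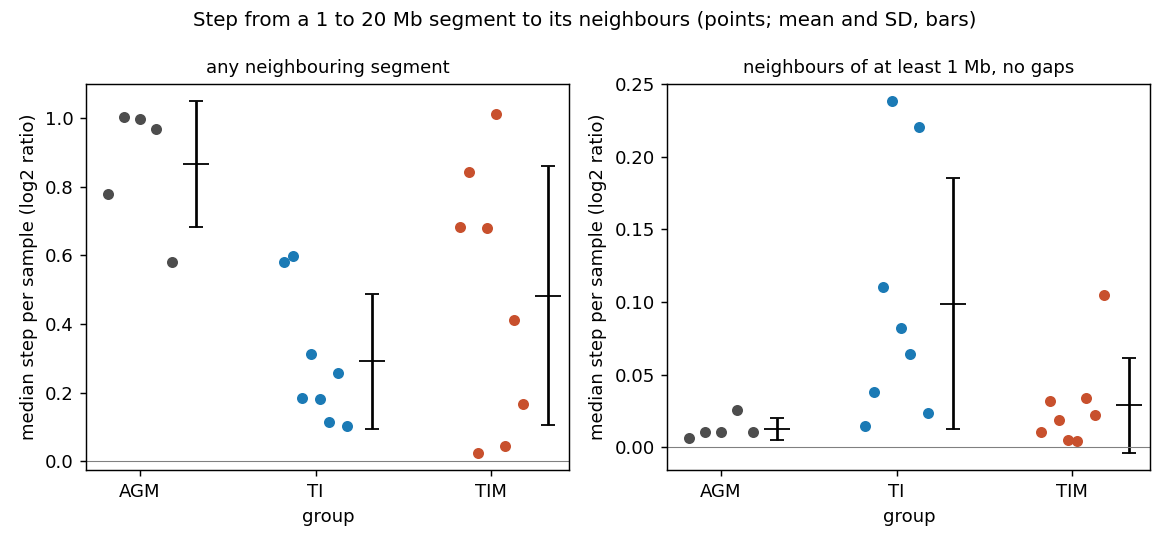
Median step per sample on the log2 scale, to any neighbouring segment (left) and to neighbours of at least 1 Mb without gap segments (right), with 1 point per sample and mean and SD beside each group. On the left AGM is highest, at 0.58 to 1.00, and on the right it is low, at 0.006 to 0.026, with TI tumours reaching 0.24.

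A chromosome was called gained when at least 50% of it had a log2 ratio of at least 0.3. By this rule 11 autosomes in 7 TI tumours and 4 in 4 TIM tumours were gained, and 0 in AGM. They held 52 TI and 36 TIM members, gaps included. In TI they were Chr 17 in replicate 1, Chr 12 in replicate 2, Chr 6 and Chr 12 in replicate 3, Chr 6 in replicate 4, Chr 11 and Chr 12 in replicate 5, Chr 12 and Chr 17 in replicate 7, and Chr 11 and Chr 12 in replicate 8. In TIM they were Chr 6 in replicates 1, 11 and 12 and Chr 11 in replicate 9. Among the gained members, 42 of 50 in TI and 32 of 40 in TIM lay on these chromosomes.

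A gained chromosome consisted of 9.43 ± 4.99 segments per tumour in TI (SD, n = 7) and 14.3 ± 8.14 in TIM (SD, n = 4). The TI tumours had 16 (replicate 1), 13 (replicate 2), 13.5 (replicate 3), 5 (replicate 4), 5.5 (replicate 5), 3 (replicate 7) and 10 (replicate 8). The TIM tumours had 7 (replicate 1), 9 (replicate 9), 16 (replicate 11) and 25 (replicate 12). The groups overlapped and did not differ beyond their spread (exact permutation test of the rank sum, p = 0.339, adjusted p = 0.424). Counting only segments of at least 1 Mb without gaps, an alternative chosen after seeing the data, gave 5.29 ± 3.31 in TI and 10.3 ± 6.90 in TIM, and TI replicate 1 fell from 16 to 6 (exact test, adjusted p = 0.288). Fragmentation differed within a group even for the same chromosome, since Chr 12 had 3 segments in TI replicate 7 and 15 in TI replicates 3 and 8. After neighbouring segments that differed by under 0.1 were merged, Chr 6 of TIM replicate 12 still had 23 segments, whereas the mean of TI replicate 3 fell to 5 and TIM replicate 9 to 5. The number of members also shrank, to 34 in TI replicate 3 and in TIM replicate 12 and to 7 in TIM replicate 9.

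Levels of pieces of the same gained chromosome moved with base composition. Across segments of at least 1 Mb without gaps, Pearson's r between G+C content and log2 ratio was 0.79 on Chr 6 of TIM replicate 12 (19 segments), 0.79 on Chr 12 of TI replicate 8 (10 segments) and 0.79 on Chr 6 of TI replicate 3 (9 segments). It was 0.57 on Chr 12 of TI replicate 3 (12 segments), 0.63 on Chr 11 of TIM replicate 9 (7 segments), 0.46 on Chr 6 of TIM replicate 11 (12 segments), 0.32 on Chr 17 of TI replicate 1 (6 segments) and 0.14 on Chr 12 of TI replicate 2 (7 segments). Segments of a chromosome share a library and are not replicates, so no test is given. At steps between such segments on gained chromosomes, the segment richer in G+C was the higher at 37 of 48 in TI (77.1%) and 29 of 37 in TIM (78.4%). Over all autosomes it was the higher at 73 of 77 steps in TIM replicate 9, 70 of 77 in TIM replicate 12 and 57 of 71 in TI replicate 3, the 3 samples with most members. In AGM the share ran from 14.3% to 53.8%, of 12 to 17 steps per sample. TI tumours had shares of 21.1% to 82.5% and TIM tumours of 43.8% to 94.8%, with 3 of 8 tumours of each group inside the AGM range and 5 of 8 above it. The part of base composition in the number of members was not tested.

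**Figure D5:**
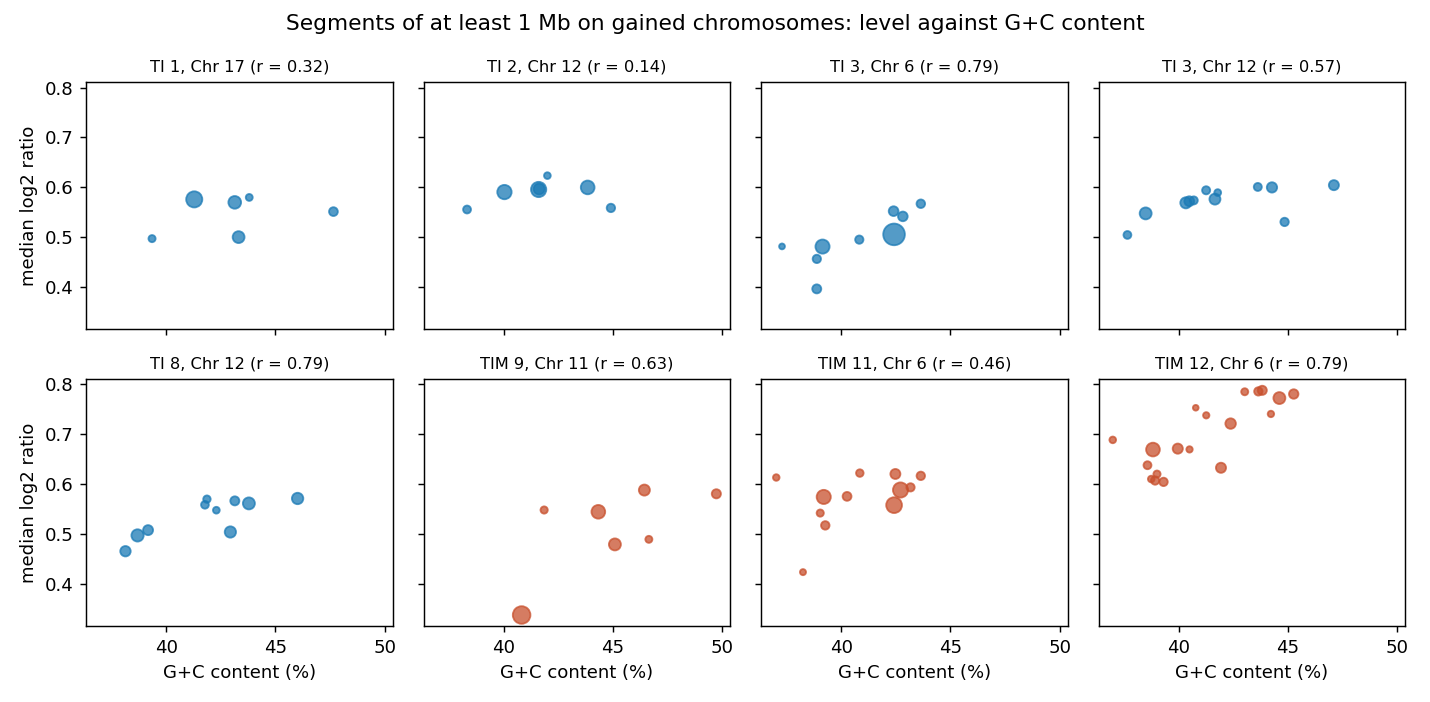
Median log2 ratio (vertical axis) against G+C content in percent (horizontal axis) for segments of at least 1 Mb without gaps on the 8 gained chromosomes with at least 6 of them, with larger points for longer segments. Points rise from left to right most clearly on Chr 6 of TIM replicate 12, Chr 12 of TI replicate 8 and Chr 6 of TI replicate 3, each at r = 0.79.

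Some boundaries between gained segments of at least 1 Mb on gained chromosomes recurred between tumours. Of 33 boundaries on Chr 6 from 3 tumours, 9 lay within 200 kb of a boundary of another tumour, as did 10 of 24 on Chr 12 from 4 tumours and 0 of 9 on Chr 11 from 3 tumours. On Chr 17 only TI replicate 1 had such boundaries, so that none could recur. They formed 11 pairs, 6 on Chr 6 and 5 on Chr 12, and in all 11 the level stepped in the same direction in both tumours. TI replicates 3 and 8 shared position 87340001 on Chr 12 exactly, with a step down in both. On Chr 6, TI replicate 3 and TIM replicates 11 and 12 all stepped up, at 70800001, 70780001 and 70720001. These edges, from tumours of both genotypes, were at most 80000 bases apart. They enter the pairs more than once, and TIM replicates 11 and 12 may share an animal, so the 11 pairs are not independent. The share expected from position alone was not computed.

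Chromosomes that were not called as gained also held runs of members at alternating levels. Chr 17 of TI replicate 3 had 12 members, 11 of them without gaps at levels from 0.067 to 0.39. Of these, 2 passed the threshold for a gain, chr17:15380001-16400000 (0.39) and chr17:82100001-88180000 (0.32). Chr 3 of TIM replicate 12 had 10 members, and 1 passed at 0.32 (chr3:100720001-105240000). Chr 18 of TIM replicate 12 had 7 members, and 2 passed at 0.37 and 0.30. In each of these runs most members stayed below the threshold.

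At the length bounds, the shortest members were 1.00 Mb (TI replicate 8, Chr 9, -0.49) and 1.02 Mb (AGM replicate 3, Chr 4, -0.36, and TI replicate 3, Chr 17, 0.39), while the longest segments just under the bound were 0.98, 0.96 and 0.94 Mb at -0.36, 0.23 and -0.056. The longest members were 19.8 Mb (TIM replicate 4, Chr 15, -0.14), 19.7 Mb (TIM replicate 12, Chr 4, -0.004) and 19.6 Mb (TI replicate 6, Chr 4, -0.87). Just above the bound stood segments of 20.02, 20.4 and 20.5 Mb at -0.008, 0 and 0.015.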

How the data were processed

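DNA from frozen tumours and adrenal glands was sequenced at low coverage. Per the labels, reads were processed with cutadapt 2.8, HISAT2 2.1.0 and SAMtools 1.10 against mm39 (GRCm39). The authors determined copy number with cn.MOPS and deposited, for each segment and sample, a median and a mean log2 ratio to wildtype adrenal glands and a copy number. Window length and segmentation settings are not given in the sources used here, and all segment starts lie on a 20 kb grid. Read counts were not used here, so the depth behind a segment is unknown and no interval that needs it is given. 0 columns of per-sample values were left unused. Correction for base composition is not given in the sources used here.

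Members were all autosomal segments of 1 to below 20 Mb in AGM, TI and TIM. Members, gene lists and tests were chosen with earlier results of these data known. Gene positions came from GENCODE M39 and base composition from GRCm39, and sequences were read from the GRCm39 genome. Groups were compared over samples by the two-sided exact permutation test of the rank sum, with Benjamini-Hochberg adjustment over 10 comparisons. The labels do not say which samples come from the same animal, so p-values measure the spread between these samples. Named members were those at or past a log2 ratio of 1 or -1, the 5 highest and 5 lowest called members per group, called members over a gene of the lists, members with a boundary shared by at least 3 samples, those nearest the length bounds, and those of the 5 autosomes with most members. Genes of short members outside the lists were named after their values were seen. Some genes enter the counts but are not reported here. Alternatives were other length bounds, merging of neighbours that differ by under 0.1, a difference of means, a replicate block, subsets of samples, the mean log2 ratio, other thresholds and other neighbours. Leaving out gap segments, counting only segments of at least 1 Mb and leaving out single TIM tumours were added after seeing the data. Counting of members, steps and the test were tested on simulated data. Segments were simulated with known lengths, so that recovery of members in 21 of 21 samples checks the counting only and not the calling of segments. For independent normal values in groups of the sizes of TI and TIM, 5.6% of 1000 simulations with equal groups fell under 0.05. With a group shifted by 2 SD, 96.0% did so. Skewed counts and tumours of a shared animal were not simulated. Software was Python 3.11.15, numpy 2.4.6, pandas 2.3.3 and matplotlib 3.10.9.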

Additional observations from a re-analysis of the deposited data

Results flagged for a closer look

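Of 21 sets of sample values examined for a sample far from the rest of its group, 4 had one. Independent sets of normal values would give about 1.05 by chance. The sets here include skewed, constant and repeated values, so this number is no measure of an excess. TI replicate 3 had 55 members without gaps, and the next TI tumour had 27. TIM replicate 12 had 133 Mb in called members, and the next TIM tumour had 53.4 Mb. The median step to neighbours of at least 1 Mb without gaps was 0.105 in TIM replicate 12, with the next TIM tumour at 0.034, and 0.0257 in AGM replicate 4, with the next AGM sample at 0.011.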

How the results depend on the processing

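Over 136 recomputations of the 10 comparisons, 112 kept their direction and side of the threshold, 17 lost a call and 7 turned direction. All values here are adjusted p of the exact test. With a difference of means, the number of members gave 0.0777 for TI and 0.135 for TIM against AGM, and called Mb gave 0.135 and 0.159. With the replicate block, in which same-numbered samples were paired, TI against AGM gave 0.125 for the number, called Mb and step, and TIM against AGM gave 0.278 for the number and called Mb. The 5 and 3 pairs there allow no p under 0.0625 and 0.25. Same-numbered samples come from different animals and share only a number: r of their deviations in members per autosome ran from -0.308 to 0.334, and every sample correlated best with its own number in no pair of groups. The number in TIM against AGM gave 0.143 with tumours outside the adrenal gland only, 0.115 without the tumours of over 100 segments, and 0.0687 to 0.0808 without an AGM replicate. Without an AGM replicate, TI against AGM ran from 0.0135 to 0.0202 for the number and called Mb and from 0.0135 to 0.0269 for the step, and TIM against AGM was 0.0455 for called Mb and from 0.121 to 0.306 for the step. Fragmentation ran from 0.240 to 0.717 without a TIM replicate. Called Mb in TIM against AGM gave 0.138 with members of at least 2 Mb. The step turned direction with neighbours of at least 1 Mb, at 0.00518 (TI against AGM), 0.355 (TIM against AGM) and 0.00738 (TI against TIM), and at 0.0194, 0.622 and 0.0469 with gaps left out as well. The number in TI against TIM turned without gap members, at 0.937. For these the choice of neighbours or members itself makes the change, and for the others the cause was not tested. Title prefix and genotype cannot be told apart for TI replicates 1 to 7, and depth per library was not analysed here.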
